A study of Rattus with 9 samples.

Results

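Bile ducts taken 7 days after liver transplantation (LT) were compared with bile ducts from sham-operated rats. The comparison was chosen by its labels: 3 libraries of LT day 7 against the 3 libraries of the sham group. A barcode counted as a cell when it held more than 400 and fewer than 6000 genes, with mitochondrial transcripts under 25% and globin transcripts under 3% of its unique molecular identifiers (UMIs, each standing for 1 captured RNA molecule). By this rule 58599 of the 150379 cells of the whole series belonged to the comparison, of which 24407 were sham cells and 34192 were day 7 cells. The study's methods describe Sprague-Dawley rats aged 6 to 8 weeks and LT by a cuff technique with warm ischemia of the graft, without tying single libraries to rats. The day 7 libraries are labelled ctrl, which sets them apart from a treated arm not used here, and what the sham operation comprised is not given in the sources used here. The bile duct was minced, digested with collagenases and dispase, freed of red cells and dead cells, and profiled by droplet-based single-cell RNA sequencing from the 3' end. The labels give the 3 sham libraries as 3 samples but the 3 day 7 libraries as 1 sample, and they do not say that these came from separate rats. The p-values below therefore measure the spread between libraries, part of which may be technical.

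The extrahepatic bile duct is a tube lined by biliary epithelial cells (BECs), which secrete bicarbonate and mucus and shield the wall from bile. Scattered among them are tuft cells, chemosensory cells that release leukotrienes and cytokines. Below the epithelium lie fibroblasts, vascular smooth muscle cells (VSMCs) and a capillary plexus of endothelial cells (ECs) that is fed by the hepatic artery. In the rat, which has no gallbladder, the duct runs through the pancreas on its way to the gut. After LT the duct is exposed to ischemia and reperfusion, and to recipient leukocytes where donor and recipient differ. Interferon gamma from activated T and NK cells is known to induce chemokines such as Cxcl9 and Cxcl11, antigen-presentation genes and immunoproteasome subunits in epithelium, endothelium and stroma.

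Sequencing depth was uneven. The cells of a sham library held 10721099 to 73737096 UMIs and those of a day 7 library 37910348 to 64935040, with medians of 2903 to 4879 and 2912 to 4048 UMIs per cell, respectively. Sham library 1 held only 2456 cells, against 9971 and 11980 in sham libraries 2 and 3. No pair of libraries shared more than 0.492% of the cell barcodes of the smaller library, and no pair within a group agreed within sampling noise. After removal of 4394 cells with the highest doublet scores, 54205 cells fell into 31 clusters, of which 7 stayed unnamed and the others formed 13 classes. Class names were given from marker genes, so that each name below means cells that resemble that type. Over all cells the summed BEC markers ranged from 4523 to 9458 CPM, the UMI counts of a gene scaled to the same total in every library, in sham and from 636 to 3160.4 CPM at day 7, and endothelial, fibroblast and smooth muscle markers were present in every library.

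BEC-like cells made up a smaller part of every day 7 library than of any sham library, no share passed the test, and the 3 day 7 libraries were unlike each other. BEC-like cells were 19% (95% Wilson interval 17.5 to 20.7), 17.2% (16.4 to 17.9) and 16.0% (15.3 to 16.6) of the cells in sham libraries 1 to 3. At day 7 they were 11.0% (10.5 to 11.6), 2.0% (1.69 to 2.36) and 10.5% (10.0 to 11.1). B-like cells were 0.220%, 0.423% and 0.316% of sham cells and 15.9%, 0.559% and 22.3% of day 7 cells, so that the groups did not overlap but day 7 library 2 lay next to sham. NK&T-like cells followed the same pattern with overlap, at 5.59%, 2.85% and 3.65% in sham and 25.9%, 4.74% and 29.6% at day 7. Day 7 library 2 instead held 52.1% macrophage-like and 19.8% neutrophil-like cells. The other 5 libraries held 10.4% to 22.1% and 0.108% to 6.91% of these classes. Intervals cover counting error only.

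Fibroblast-like cells were 32.1% and 44.5% of sham libraries 2 and 3 but 4.14% of sham library 1, which lay among the day 7 values of 4.88%, 4.50% and 0.980%. Lymphatic EC-like cells were 2.90%, 3.18% and 0.957% in sham and 0.269%, 0.780% and 0.526% at day 7, without overlap. EC-like cells overlapped between the groups, at 14.6%, 5.96% and 5.37% against 3.76%, 6.35% and 1.59%. VSMC-like cells were 3.26%, 1.77% and 1.44% of sham cells and 1.64%, 4.18% and 0.637% of day 7 cells, and the means were 2.16% and 2.15%. A two-sided exact permutation test of 3 against 3 libraries cannot give a p below 0.1, and no share reached less. The adjusted p over the 13 classes was 0.325 for BEC-like, B-like, lymphatic EC-like and NK&T-like cells, 0.39 for fibroblast-like and EC-like cells, and 1 for VSMC-like cells.

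**Figure D1:**
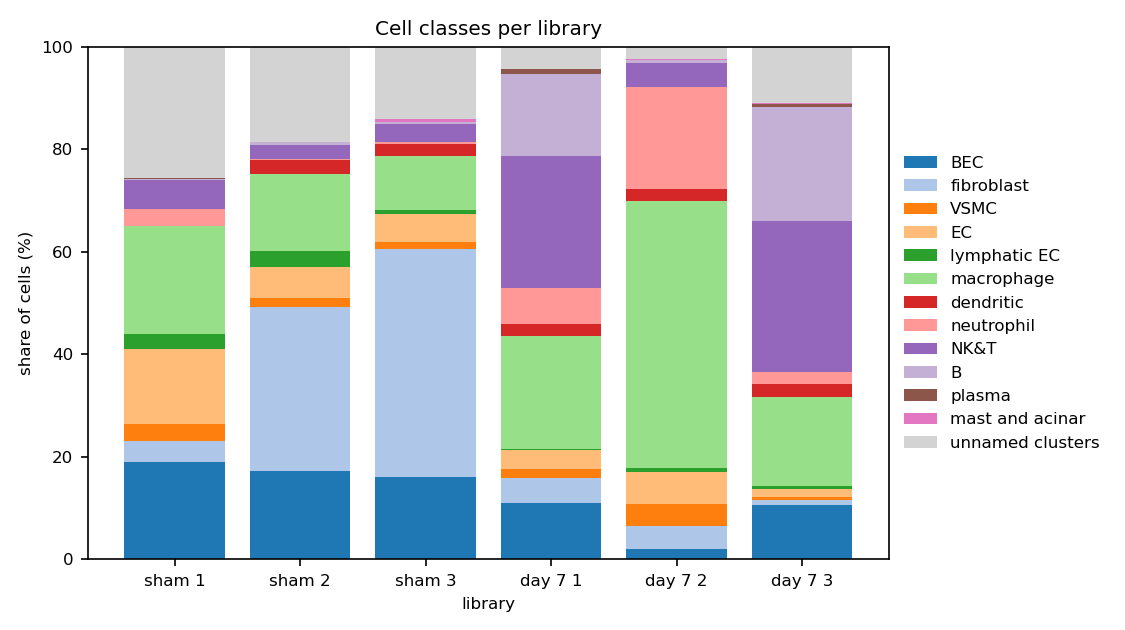
Stacked bars give the share of cells (%) in each named class for the 3 sham and 3 day 7 libraries, with cells of unnamed clusters on top. BEC-like cells fill 16.0% to 19% of the sham bars and 2.0% to 11.0% of the day 7 bars, and day 7 library 2 differs from the other day 7 libraries by its macrophage-like and neutrophil-like cells.

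Over all cells of a library, genes of cytotoxic lymphocytes were far higher at day 7. The comparison was made on the UMI sum of each library with edgeR's quasi-likelihood test and Benjamini-Hochberg adjustment over 15335 genes, and a gene was called when its adjusted p was under 0.05. Levels are CPM after TMM scaling of the library sizes, given for libraries 1 to 3 in order. Marker sums, counts of markers without overlap and levels among empty barcodes are CPM without TMM scaling, over all cells and within classes. The shares of all genes without overlap set beside them use TMM scaling, so they are not on the same scale. A sum over all cells follows both the number of cells of a type and the RNA in each, and fewer cells of a type and less RNA per cell cannot be told apart in it. In all, 680 genes were higher (4.43% of those tested) and 466 lower (3.04%). Gzma, encoding the cytotoxic protease granzyme A, was at 12, 3.17 and 4.87 CPM in sham and 521, 61.4 and 909 CPM at day 7. The fitted difference was 6.24 ± 1.14 (log2, SE; adjusted p = 0.0352). Each SE was taken as the absolute difference divided by the square root of the F statistic of the test. Prf1, the pore-forming perforin, was at 4.41, 1.73 and 2.66 against 118, 22.6 and 301 CPM (5.68 ± 1.02, adjusted p = 0.0352). Day 7 library 2 was the lowest of the 3 for both. Genes named by size of change had to be without overlap between the groups, so that the lack of overlap in them is no result.

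The list of cytotoxic effector genes had 11 members tested, of which 7 rose and none fell, with a median log2 difference of 4.69 beside -0.03 over all genes tested. The granule gene Nkg7 was among them, at 25.8, 10.2 and 14.7 CPM in sham and 545, 114 and 844 CPM at day 7. Of 15 T cell receptor and checkpoint genes, 10 rose and none fell (median 4.26). Cd3d, a chain of the T cell receptor complex, was at 21.5, 4.74 and 7.46 CPM in sham and 403, 43.2 and 453 CPM at day 7. The coreceptor gene Cd8a was at 12.7, 4.26 and 2.82 against 155, 131 and 274 CPM. Ctla4, which restrains T cell activation, was at 1.30, 1.03 and 1.16 against 33.7, 7.51 and 60.7 CPM, and its fitted difference was 4.89 ± 0.78 (adjusted p = 0.0298). The natural killer receptor gene Ly49i4 and the granzyme genes Gzmbl2 and Gzmk also ranked among the 12 named genes with the largest rise, although reads of near-identical Ly49 and granzyme copies may be split between them. These genes were highest in day 7 libraries 1 and 3, where NK&T-like cells were 25.9% and 29.6% of the cells. Day 7 library 2 had a smaller share of these cells (4.74%) than sham library 1 (5.59%). It still held more Gzma, Cd8a and Ctla4 than that library. Cd8a was also higher at day 7 within macrophage-like cells, which were 52.1% of the cells of day 7 library 2. The part of macrophage-like cells in its Cd8a level was not tested. The 12 markers of the class, Cd3d and Nkg7 among them, summed to 52.0 to 219 CPM in sham and 291 to 2351 CPM at day 7. Of the 12, 7 were higher without overlap in CPM without TMM scaling. With TMM scaling, 40.1% of all genes tested over all cells did not overlap in either direction. None of the 9 B cell and plasma cell genes tested was called by edgeR, where their median difference was 3.74 and 7 had an unadjusted p under 0.05. DESeq2 called 7 of them, and edgeR with plain library sizes 1. Day 7 library 2 was again near sham for the 8 B cell markers, which summed to 13.9 CPM there and to 198 and 303 CPM in day 7 libraries 1 and 3.

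Some interferon-induced genes rose at day 7. Cxcl11, a ligand of the T cell chemokine receptor Cxcr3, was at 1.08, 2.60 and 2.20 CPM in sham and 91.5, 67.1 and 166 CPM at day 7 (5.75 ± 0.52, adjusted p = 0.0194). Its relative Cxcl9 was at 2.53, 15.1 and 10.9 against 329, 139 and 258 CPM (4.65 ± 0.72, adjusted p = 0.0294). Ccl5, a T cell and monocyte chemokine, was at 134, 34.0 and 47.0 against 2889.5, 281 and 3415 CPM. Of the 8 interferon-induced chemokines and receptors tested 4 rose, Cxcl11, Ccl5 and Cxcl9 among them, and all 8 differences were positive (median 2.81). Of 16 interferon-stimulated genes, 3 rose, Gbp5 and Gbp2 among them, and the other 13 were not called by edgeR, while all 16 differences were positive (median 2.42) and all 16 had an unadjusted p under 0.05. DESeq2 called 14 of the 16. Gbp2, a guanylate-binding protein of cell-autonomous defence, was at 23.8, 26.7 and 23.2 CPM in sham and 140.4, 163 and 244 CPM at day 7 (2.90 ± 0.26, adjusted p = 0.0194). Ubd, which encodes the ubiquitin-like modifier FAT10, was at 7.59, 8.87 and 4.93 against 603, 39.3 and 551 CPM (5.80 ± 1.04, adjusted p = 0.0352).

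Most MHC class I processing genes rose at day 7 over all cells, 9 of 10 (median 1.92), or 7 of 10 with plain library sizes. Psmb9, a catalytic subunit of the immunoproteasome, was at 140.4, 128 and 114 CPM in sham and 904, 465 and 1067 CPM at day 7 (2.67 ± 0.34, adjusted p = 0.0261). The peptide transporter gene Tap1 was at 29.2, 25.4 and 25.3 against 152, 80.1 and 263 CPM, and Nlrc5, the transactivator of class I genes, at 0.217, 0.220 and 0.211 against 2.14, 1.60 and 7.98 CPM. Of the 7 MHC class II genes tested, 5 rose (median 2.61). RT1-Da, a rat class II chain, was at 730.2, 846 and 782 against 4599, 2204 and 8087 CPM, and Ciita, the class II transactivator, at 1.01, 1.16 and 0.795 against 16.2, 3.79 and 12.4 CPM. Reads of RT1 genes may be split among close copies.

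Macrophage and neutrophil genes rose in part. Of 11 resident macrophage genes, 5 rose. The complement gene C1qa was at 418, 304 and 193 CPM in sham and 1048, 1392 and 1344 CPM at day 7 (2.05 ± 0.32, adjusted p = 0.0295). Clec4f, a lectin known from Kupffer cells, had 3 UMIs in all in sham and 288, 256 and 165 UMIs in the day 7 libraries. Of 13 complement genes, C2, Cfd and Cfp rose. Csf1r, the receptor that macrophages need to survive, was at 62.9, 73.4 and 48.9 against 153, 202 and 113 CPM, and the chemokine gene Ccl4 at 122, 97.4 and 68.3 against 521, 277 and 545 CPM. Among 10 neutrophil granule and alarmin genes tested, only Mmp9 and Slpi were called, and the values of both were highest in day 7 library 2, at 66.4 and 9484 CPM. Csf3r, the granulocyte colony-stimulating factor receptor, was at 4.19, 1.76 and 0.869 against 12.9, 37.0 and 12 CPM. The 11 neutrophil markers summed to 22545 CPM in day 7 library 2, and to between 40.6 and 2066 CPM in the other 5 libraries, with Cxcr1 at 0 throughout. The cytokine gene Il10 was the single called member of 15 inflammatory cytokines and receptors, at 0.578, 1.09 and 0.547 against 2.52, 4.95 and 3.72 CPM.

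**Figure D2:**
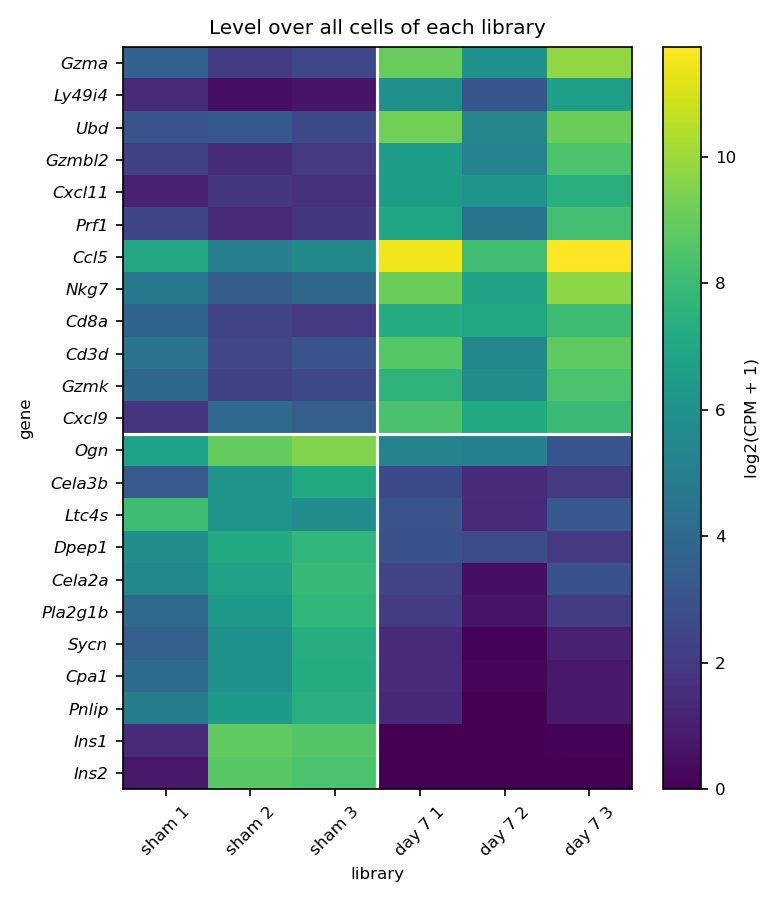
Each tile gives the level over all cells of a library as log2(CPM + 1), for the 12 named genes that rose most (above the white line) and 11 of the 12 that fell most (below it). The 3 sham columns are dark for lymphocyte and interferon-induced genes, day 7 column 2 is darker (lower) than the other day 7 columns for each of them, and the pancreatic genes are lower in the day 7 columns than in the sham columns.

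Genes known from the pancreas were among those that fell most. Ins1 and Ins2, the rat insulin genes, were at 469.7 and 406 CPM in sham library 2 and at 385 and 341 CPM in sham library 3, but at 1.66 and 0.723 CPM in sham library 1. The 3 day 7 libraries held 4 and 1 UMIs of them in all (adjusted p = 0.0369 and 0.0372). Of 6 islet hormone genes tested 3 fell, the other being Ghrl. Pancreatic lipase, Pnlip, was at 29.9, 83.5 and 169 CPM in sham and 1.49, 0 and 0.733 CPM at day 7 (-6.92 ± 1.29, adjusted p = 0.0364). Carboxypeptidase Cpa1 was at 16.5, 61.9 and 152 against 1.69, 0.102 and 0.733 CPM. Sycn, Pla2g1b, Cela2a and Cela3b, which also encode proteins of pancreatic acinar secretion, fell in the same way. Among empty barcodes of sham these genes were higher than in cells, Pnlip at 144, 1631 and 2398 CPM and Cpa1 at 79.4, 872 and 1237 CPM. The part of free RNA in these values was not tested. Acinar markers summed to 328 to 2687 CPM in sham and 13.7 to 58.4 CPM at day 7, all 8 lower without overlap beside the 40.1% of all genes. Endocrine markers summed to 10.2, 1158 and 1042 CPM in sham and to 11.3, 0.501 and 0.662 CPM at day 7, and the 4 of 9 that were lower without overlap are close to the share of all genes. Sham library 1 had the lowest sums of both among the sham libraries.

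Tuft cell genes were lower in every day 7 library. Ltc4s, the leukotriene C4 synthase, was at 272, 68.5 and 52.8 CPM in sham and 6.94, 1.64 and 8.15 CPM at day 7 (-4.54 ± 0.91, adjusted p = 0.0403). The 8 tuft markers were all lower without overlap, again beside 40.1% of all genes, and their sum was 405, 135 and 95.4 CPM in sham and 35.4, 18.2 and 29.2 CPM at day 7. A cluster led by Krt18, Rgs13 and Nrgn carried 7 of the 8 tuft markers. It held 484, 772 and 652 sham cells and 34, 1 and 63 day 7 cells, and it stayed unnamed since more of its leading genes were BEC markers.

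Biliary and wall genes were lower or did not pass the test. All 20 biliary epithelial genes had negative differences (median -1.35), and Scgb1c1, Ttr and Gast were called. Ttr, the thyroid hormone carrier transthyretin, was at 102, 60.8 and 51.5 CPM in sham and 9.67, 3.89 and 6.08 CPM at day 7 (-3.44 ± 0.44, adjusted p = 0.0261). Of 14 bile secretion and transport genes, the bile acid receptor gene Gpbar1 and the secretin receptor gene Sctr fell. Sctr was at 17.7, 21.4 and 27.8 against 9.49, 9.28 and 8.94 CPM. All 12 smooth muscle contractile genes had negative differences (median -1.07) and Lmod1 and Synm were called. Lmod1, an actin filament nucleator of smooth muscle, was at 18.7, 21.4 and 32.0 against 3.83, 4.30 and 1.86 CPM. None of 15 collagens and none of 14 endothelial genes was called by edgeR, with 4 and 0 at an unadjusted p under 0.05, and DESeq2 called 3 and 0 of them. Col1a1, the main fibrillar collagen, was at 506, 7314 and 8604 CPM in sham and 1520, 2899 and 493 CPM at day 7, so sham library 1 lay at the level of the day 7 libraries. The elastic fibre gene Ltbp4, the protease inhibitor gene Timp3, the protease gene Adamts1, the dipeptidase gene Dpep1 and the matrix proteoglycan gene Ogn fell. Dpep1 was at 54.7, 146 and 209 against 6.60, 5.39 and 2.81 CPM (-4.79 ± 0.61, adjusted p = 0.0261).

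Metabolic and stress lists had few called members. Of 17 hypoxia-inducible factor (HIF) targets 3 rose, and all 3 encode glycolytic enzymes. Ldha, the lactate dehydrogenase A chain, was at 315, 324 and 282 CPM in sham and 647, 1383 and 1109.6 CPM at day 7 (1.77 ± 0.30, adjusted p = 0.0325), with Pgk1 at 1.5 ± 0.26 and Eno1 at 1.28 ± 0.27. Gpx1, the selenium-dependent glutathione peroxidase, was the single called member of 17 selenium and selenoprotein genes, at 466, 500.3 and 448 against 880.1, 1286 and 818 CPM. Gsta1, a glutathione transferase, was the only called member of 11 NRF2 targets and fell, at 253, 400.5 and 596 against 37.8, 48.8 and 14.1 CPM. Of 17 TGF-beta signalling genes only the ligand gene Tgfb1 was called by edgeR, at 79.2, 67.2 and 58.5 against 126, 153 and 139 CPM. Only 4 of the 17 differences were positive, and the median was -0.44. In edgeR 6 of the 17 had an unadjusted p under 0.05, and DESeq2 called 5. Rrm2 rose among 16 cell cycle genes, Jun fell among 13 immediate early genes, Cyp2e1 fell among 6 hepatocyte genes, and among 10 mucosal defence genes Cxcl17 rose and Muc5b fell. With plain library sizes the Rrm2 call was lost and 6 immediate early genes were called. DESeq2 called 4 cell cycle and 5 immediate early genes. None of 14 matricellular and wound genes, 11 epithelial-mesenchymal transition (EMT) factors and cadherins, or 7 heat shock genes was called by edgeR, with 2, 2 and 1 at an unadjusted p under 0.05, and DESeq2 called 1, 2 and 1 of them. Vim was at 986, 2397 and 1881 CPM in sham and 1586, 4436 and 1431 CPM at day 7 (0.50 ± 0.54, adjusted p = 0.543). Cdh1 and Cdh2 overlapped likewise, with adjusted p values of 0.467 and 0.896.

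With plain library sizes in place of TMM the median difference of all genes moved to -0.44 from -0.03, and the calls became 395 higher and 1306 lower in place of 680 and 466. The cytotoxic, interferon-induced chemokine, interferon-stimulated, MHC class I and class II, biliary epithelial, contractile and islet lists kept the sign of every member tested, and 14 of 15 T cell receptor and checkpoint genes stayed positive. The median of the HIF targets went to 0.06, and those of the complement, matricellular and selenoprotein lists turned negative, at -0.07, -0.39 and -0.29.

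Within cell classes, the UMIs of each class were summed per library and tested in the same way, which removes the share of the class itself from the comparison. The 7 classes with at least 20 cells in every library were tested. Genes named by size of change were also required to exceed, in every library of the higher group, their own level among empty barcodes, which hold free RNA. Free RNA was estimated to give between 1.05% and 12.1% of the UMIs of a class. The 11 neutrophil markers summed to 967 to 2559.7 CPM in the 7 classes of day 7 library 2, and to 33.1 to 394.6 CPM in those of the other day 7 libraries. Their part in the results of the classes was not tested.

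In BEC-like cells the arginine-synthesis gene Ass1 and Ubd rose at day 7, while the keratins did not pass the test. Of 11881 genes tested 94 were higher (0.791%) and 55 lower (0.463%). Ass1, argininosuccinate synthase, was at 11.3, 11.3 and 12.7 CPM in sham and 317, 318 and 293 CPM at day 7, a 26.2-fold difference (4.71 ± 0.18, adjusted p = 8.1e-05). The 3 libraries of each group were close to each other, day 7 library 2 included, and the call stayed in all 6 fits that left out a library. Ubd was at 15.4, 33.1 and 15.4 against 2267, 134 and 2244 CPM (6.17 ± 1.05, adjusted p = 0.043), again lowest in library 2. Calcb, the beta form of calcitonin gene-related peptide, was at 5.63, 9.60 and 14.5 against 58.7, 98.2 and 132 CPM (3.22 ± 0.40, adjusted p = 0.0239). Pinlyp, a phospholipase inhibitor gene, rose by 2.39 ± 0.26, and Tnip3, which encodes a partner of the NF-kappaB inhibitor A20, by 2.25 ± 0.38.

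Of the 14 interferon-stimulated genes tested in BEC-like cells, Gbp5, Gbp2 and Usp18 rose and all 14 differences were positive (median 1.89 beside -0.01 over all genes). Gbp2 was at 0, 2.47 and 1.93 CPM in sham and 60.7, 17.8 and 81.7 CPM at day 7, below its level among empty barcodes in all 3 day 7 libraries (115, 135 and 181 CPM). Gbp5, at 26.9, 4.46 and 26.5 CPM at day 7, was below that level too (36.2, 25 and 69.6 CPM), and Usp18 was not above it in every library. None of the 9 MHC class I processing genes and none of the 5 MHC class II genes tested was called by edgeR. All were positive, with medians of 2.04 and 6.03, and all had an unadjusted p under 0.05. DESeq2 called 8 of the 9 and all 5. Cd74, the class II invariant chain, was at 58.7, 42.8 and 39.3 CPM in sham and at 5609, 155 and 5928 CPM at day 7 (6.38 ± 1.21, adjusted p = 0.0563). RT1-Ba was at 12.4, 8.14 and 6.16 against 1258, 23.8 and 1289.8 CPM. Day 7 libraries 1 and 3 were far above sham for these genes and library 2 was much closer to it. Cd74 among empty barcodes was at 5073, 1939 and 5715 CPM at day 7, close to libraries 1 and 3 of the class and far above library 2. The 13 macrophage markers in BEC-like cells summed to 113 to 287 CPM in sham and 293 to 556 CPM at day 7, 4 of them higher without overlap and none at 0 everywhere. In this class 23.5% of all genes tested did not overlap. The 12 NK&T markers summed to 8.29 to 12.7 in sham and 42.6, 6.98 and 128 CPM at day 7, 2 of them higher without overlap. Their part in the result was not tested.

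Akr1c15, an aldo-keto reductase gene, fell from 957, 1028 and 1069.8 CPM to 116, 72.9 and 46.2 CPM (-3.70 ± 0.36, adjusted p = 0.0149). Ttr was at 351, 245 and 187 against 49.5, 52.8 and 34.4 CPM (-2.53 ± 0.29, adjusted p = 0.021). Spp1, encoding the secreted phosphoprotein osteopontin, was at 1176, 1649 and 2054 against 409, 347 and 511 CPM (-1.94 ± 0.28, adjusted p = 0.0325). The secretoglobin gene Scgb1c1 and Tmem107, a gene of the ciliary base, fell as well.

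Few lineage and secretion genes of BEC-like cells were called. Of 19 biliary epithelial genes 2 fell (Scgb1c1 and Ttr) and the median difference was -0.18. Krt19 was at 221, 180.3 and 177 CPM in sham and 203, 218 and 223 CPM at day 7 (0.15 ± 0.17, adjusted p = 0.695). None of 13 bile secretion and transport genes was called by edgeR or DESeq2, and 5 had an unadjusted p under 0.05 in edgeR. Cftr, the chloride channel that drives bicarbonate secretion, was at 45.9, 47.5 and 36.0 against 54.3, 73.6 and 86.3 CPM, higher in all 3 day 7 libraries but not called (0.73 ± 0.22, adjusted p = 0.144). Cxcl17, a mucosal chemokine gene, rose among 9 mucosal defence genes, at 0, 0.218 and 0.482 against 2.57, 12.6 and 8.84 CPM, not above the empty barcodes in every day 7 library. Of 17 HIF targets Pgk1 and Ero1a rose. Pgk1 was at 202, 224 and 233 against 546, 978 and 600.4 CPM (1.69 ± 0.26, adjusted p = 0.0383). None of 17 selenium and selenoprotein genes, 13 immediate early genes, or 7 EMT factors and cadherins was called by edgeR or DESeq2, with 4, 0 and 1 at an unadjusted p under 0.05 in edgeR. Cdh1 was at 320.0, 371 and 421 against 580.4, 423 and 410.0 CPM, and Vim at 33.2, 107 and 97.2 against 49.3, 231 and 73.4 CPM.

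The BEC-like cells of the groups lay mostly in different clusters. A cluster led by Lypd8, Reg3g and Gpx2 held 93.0%, 66.9% and 97.4% of them at day 7 but 5.94% to 7.58% in sham, where clusters led by Reg3g, Gpx2 and Epcam and by Lypd8, Wfdc21 and Tff1 held the others. Akr1c15 and Spp1 are among the 10 leading genes of the cluster led by Reg3g, Gpx2 and Epcam. That cluster held 38.2%, 73.0% and 80.9% of the sham class and 5.18%, 16.2% and 1.36% of the day 7 class. Within the cluster led by Lypd8, Reg3g and Gpx2 alone 97 genes were called. Of these, 16 were among the 149 above, of which 76 were tested there. The median mitochondrial share of BEC-like cells was 4.2% to 4.90% in sham and 7.93%, 5.88% and 11.9% at day 7. Without sham library 2 or sham library 3 a single gene was called, without day 7 library 3 there were 3, and without day 7 library 2 there were 401.

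In EC-like cells the chemokine genes Cxcl11 and Cxcl9 rose at day 7, and 6 of 13 immediate early genes fell. Of 8330 genes tested 84 were higher (1.01%) and 110 lower (1.32%). Cxcl11 was at 0.720, 7.42 and 15.1 CPM in sham and 791, 286 and 2319.8 CPM at day 7 (7.13 ± 0.97, adjusted p = 0.0192). Cxcl9 was at 7.20, 103 and 145 against 1588, 1015 and 2836 CPM (4.40 ± 0.83, adjusted p = 0.0341). Ubd was at 0, 9.70 and 8.69 against 1056, 224 and 2285 CPM. Serping1, the C1 inhibitor of complement, was at 9.36, 22.2 and 18.0 against 124, 110.5 and 432 CPM, and Slfn4, a schlafen family gene, at 66.3, 173 and 207 against 355, 2252 and 3484 CPM.

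Gbp5 and Gbp2 rose among the 14 interferon-stimulated genes tested in EC-like cells, of which 13 were positive (median 1.63 beside 0.00 over all genes). Psmb9, Psmb8 and Psme2 rose among 9 MHC class I processing genes (median 1.03), and Cd74 among 5 MHC class II genes. Psmb9 was at 304, 323 and 273 CPM in sham and 1089, 621 and 1471 CPM at day 7. Cd74 was at 62.7, 39.9 and 45.8 against 1051, 79.9 and 1732 CPM (adjusted p = 0.0454), and was not above its level among empty barcodes. NK&T markers in EC-like cells summed to 15.2 to 23.4 CPM in sham and 19.2 to 147 CPM at day 7, with 4 of 12 higher without overlap and Ncr1 at 0. The 13 macrophage markers summed to 202 to 374 CPM in sham and 391 to 607 CPM at day 7, 3 higher and 1 lower without overlap and none at 0 everywhere. In EC-like cells 22.5% of all genes tested did not overlap. The part of these markers was not tested.

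Of the genes that fell in EC-like cells, 5 were named by size. Alpl, alkaline phosphatase, was at 107, 83.3 and 119 CPM in sham and 16.5, 11.3 and 24.8 CPM at day 7 (-2.59 ± 0.29, adjusted p = 0.0134). Maob, monoamine oxidase B, was at 41.8, 53.1 and 78.8 against 8.42, 5.36 and 8.54 CPM. The organic anion transporter gene Slco1a4, the phospholipid transporter gene Abcb4 and the aminopeptidase gene Enpep fell by 2.84, 2.41 and 2.45 on the log2 scale. Of 14 endothelial genes, Flt1 and Klf4 fell. Flt1, a receptor for vascular endothelial growth factor, was at 766, 719 and 849 against 264, 333 and 272 CPM (-1.43 ± 0.18, adjusted p = 0.0189). Klf4, a transcription factor induced by laminar flow, was at 923, 876 and 983 against 302, 346 and 544 CPM (-1.23 ± 0.24, adjusted p = 0.0402).

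All 13 immediate early genes, which respond within minutes to stimulation or tissue handling, had negative differences in EC-like cells (median -1.03), and 6 of them fell. Atf3 was at 1238, 1217 and 1302 CPM in sham and 313, 599 and 456 CPM at day 7 (-1.46 ± 0.25, adjusted p = 0.027). Egr1 was at 904, 1476 and 1639 against 385, 677 and 439 CPM. Nr4a1, Zfp36, Junb and Ier2 were the other 4. The 13 genes were also all negative in VSMC-like cells (median -0.92) and in lymphatic EC-like cells (median -0.87), where none was called by edgeR, with 12 and 5 at an unadjusted p under 0.05, and DESeq2 called 6 and 1. The summed 12 EC markers of the class ranged from 8294 to 13144 CPM in sham and from 4925 to 6060.3 CPM at day 7. Acinar markers were lower in the day 7 class as they were over all cells, at 59.3 to 831 against 2.02 to 11.8 CPM. BEC markers were lower too, at 174 to 241 against 18.2 to 57.1 CPM. Of these, 9 of 10 were lower without overlap, beside 22.5% of all genes tested in the class. The part of such markers in the falls was not tested. Without sham library 2 no gene was called by edgeR in EC-like cells (1143 genes had an unadjusted p under 0.05), without sham library 3 there was 1, and without day 7 library 3 there were 23.

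Lymphatic EC-like cells were few, with 33 to 293 cells a library, and 4503 genes were tested. Only Slpi, an antiprotease gene, was higher (0.0222%), and none was lower (0%), where DESeq2 called 50 genes and 560 had an unadjusted p under 0.05. Slpi, named after its value was seen, was at 6.16, 4.03 and 4.55 CPM in sham and 105, 225 and 188 CPM at day 7 (5.18 ± 0.46, adjusted p = 0.0043). Its level among empty barcodes was 124 to 201 CPM in sham and 770.4 to 7651 CPM at day 7, above the level in the class in all 6 libraries. The 7 lymphatic markers of the class summed to 72979 to 100349 CPM in sham and 24259 to 39134 CPM at day 7.

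In fibroblast-like cells, of 10345 genes tested 287 were higher (2.77%) and 203 lower (1.96%). Msln, encoding mesothelin, was at 1.43, 1.81 and 0.959 CPM in sham and 185, 99.5 and 379 CPM at day 7 (7.31 ± 0.65, adjusted p = 0.00339). Col11a1, a fibril-forming collagen gene, was at 1.43, 2.93 and 1.28 against 90.7, 252 and 39.9 CPM (5.97 ± 0.80, adjusted p = 0.0121). A2m, the protease inhibitor alpha-2-macroglobulin, was at 7.15, 8.71 and 13.1 against 225, 232 and 430.0 CPM (4.83 ± 0.38, adjusted p = 0.00328). Cyp11b3, a steroid hydroxylase gene with close paralogs, was at 0, 1.59 and 0.927 against 39.5, 55.4 and 78.9 CPM. Msln, A2m and Cyp11b3 stayed called in all 6 fits that left out a library. The 6 mesothelial markers, of which Msln is a member, summed to 15.4 to 25.1 CPM in sham and 145 to 496 CPM at day 7. Of these markers 2 were higher without overlap, where 27.1% of all genes tested in the class did not overlap, and Upk3b and Bnc1 were at 0.

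Some matrix and wound genes rose in fibroblast-like cells. Of 15 collagens Col8a1, Col5a3 and Col4a1 rose and none fell (median 0.47 beside 0.00 over all genes). Col1a1 was at 8047, 15841 and 17409.8 CPM in sham and 13592, 21125 and 17248 CPM at day 7 (0.33 ± 0.39, adjusted p = 0.717). Col5a3 was at 37.2, 80.8 and 55.2 against 158, 432 and 292 CPM (2.31 ± 0.42, adjusted p = 0.0265). Of 14 matricellular and wound genes Thbs2, Fn1 and Ccn2 rose, and 12 differences were positive (median 1.28). Fn1, fibronectin, was at 348, 879 and 655 against 3161, 1434 and 2909 CPM. Thbs2, the matricellular thrombospondin 2, was at 20, 94.3 and 69.1 against 483, 756 and 339 CPM. Of 14 elastic fibre genes the crosslinking enzyme gene Lox rose, at 320.4, 474 and 457 against 982, 1069 and 771 CPM, and Fbln5, which assembles elastic fibres, fell from 74.4, 72.3 and 80.4 to 31.7, 26.5 and 19.5 CPM. The membrane collagenase gene Mmp14 rose among 10 matrix proteases and inhibitors.

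Some complement and antigen presentation genes rose too in fibroblast-like cells. Of 11 complement genes C3, Cfb and C2 rose. C3, the central complement protein, was at 21.5, 2.63 and 2.40 CPM in sham and 390.5, 91.3 and 1433 CPM at day 7 (7.08 ± 1.37, adjusted p = 0.0305), and Cfb, a protease of the alternative pathway, at 5.72, 1.16 and 0.735 against 36.7, 15.4 and 24.6 CPM. Of 9 MHC class I processing genes Psmb9, Tap1, Tap2 and Psmb8 rose, 2 were called with plain library sizes, and all 9 were positive (median 1.82). All 14 interferon-stimulated genes tested had positive differences (median 2.21). Cxcl9 was at 10.0, 23.2 and 10.3 against 966, 86.9 and 1440.0 CPM. C3, C2, Psmb9, Tap1 and Psmb8 were not above the empty barcodes in every day 7 library. Macrophage markers in the class summed to 229 to 384 CPM in sham and 662 to 925 CPM at day 7, 4 of 13 higher without overlap beside the 27.1% of all genes, and none at 0 everywhere. Their part was not tested.

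Sparcl1, Cst3, Angptl1, Inmt and Shisa3 were the genes named for the size of their fall in fibroblast-like cells. Sparcl1, a matricellular gene, was at 877, 352 and 539.7 CPM in sham and 23.6, 10.4 and 24.6 CPM at day 7 (-4.93 ± 0.49, adjusted p = 0.00479). Cst3, the protease inhibitor cystatin C, was at 8373, 2566 and 3785 against 594, 469 and 544 CPM (-3.20 ± 0.47, adjusted p = 0.0143). Angptl1, an angiopoietin-like gene, was at 74.4, 42.2 and 73.1 against 2.94, 4.41 and 4.24 CPM. Inmt, a methyltransferase gene, was at 438, 84.8 and 147 CPM in sham and had 5 UMIs in all at day 7. Sparcl1, Angptl1 and Inmt stayed called in all 6 fits that left out a library.

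At day 7 a cluster led by Col3a1, Col1a1 and Mgp held 96.7% to 99.7% of the fibroblast-like cells, and in sham 16.9% to 32.4%, where a cluster led by Col3a1, Col1a1 and Dcn held most. Within the former cluster alone 197 genes were called, and 151 of them were among the 490 above, of which 446 were tested there. Without sham library 3 the count was 28, without sham library 2 it was 100 and without day 7 library 3 it was 184.

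VSMC-like cells numbered 74 to 284 a library and showed few called genes, 11 higher (0.169%) and 22 lower (0.339%) of 6492 tested. Serping1 was at 146, 125 and 98.2 CPM in sham and 418, 508 and 1110.0 CPM at day 7 (2.46 ± 0.40, adjusted p = 0.0455). Pcolce, which enhances procollagen processing, was at 116, 154 and 166 against 350.5, 643 and 512 CPM (1.78 ± 0.29, adjusted p = 0.0455). Cryab, a small heat shock protein of muscle, was at 785, 432 and 438 against 117, 120.2 and 90.5 CPM (-2.33 ± 0.30, adjusted p = 0.0326). Net1, an activator of the RhoA pathway, was at 144, 149 and 111 against 31.6, 18.3 and 17.1 CPM, and Sorbs2, a gene of actin anchorage, at 846, 467 and 318 against 125, 63.7 and 67.2 CPM. Nrgn and Asb4 fell with them.

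None of the 12 smooth muscle contractile genes was called by edgeR in VSMC-like cells, and all 12 differences were negative (median -1.67 beside -0.02 over all genes). DESeq2 called 6 of them, and 11 had an unadjusted p under 0.05 in edgeR. Myh11, smooth muscle myosin, was at 4275, 2190.3 and 1182 CPM in sham and 519, 129 and 289 CPM at day 7 (-3.03 ± 0.60, adjusted p = 0.0628). Acta2, smooth muscle actin, was at 25687, 5268 and 2718 against 3402, 1314 and 1126 CPM (-2.53 ± 0.82, adjusted p = 0.152), with sham library 1 far above the rest and overlap between the groups. None of 13 collagens was called by edgeR either, all 13 were positive (median 1.23) and 10 had an unadjusted p under 0.05, while DESeq2 called 7. Col3a1 was at 294, 1426 and 1738 against 2712, 4875 and 4791 CPM (1.84 ± 0.57, adjusted p = 0.139). Fibroblast markers in the class summed to 569, 2876 and 2498 CPM in sham and 3577, 8109 and 7475 CPM at day 7, 2 of 10 higher without overlap and none at 0, where 23.9% of all genes tested in the class did not overlap. The 8 cell cycle markers summed to 27.9, 126 and 146 CPM in sham and 278, 626 and 332 CPM at day 7, 6 of them higher without overlap. EC markers summed to 464, 2193 and 3431 CPM in sham and 1841, 893 and 1947 CPM at day 7, with overlap. In a finer clustering, a cluster led by Mgp, Rgs5 and Tagln drew 49.0% of its cells from day 7 library 2. Another, led by Tagln, Acta2 and Myl9, drew 35.2% from sham library 2. The part of these markers and of this mix of clusters was not tested. Without sham library 2 or day 7 library 3 no gene was called by edgeR, with 891 and 939 genes at an unadjusted p under 0.05, and without day 7 library 2 there were 3. DESeq2 called 330 genes with all 6 libraries. With the finer clustering edgeR called 489.

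**Figure D3:**
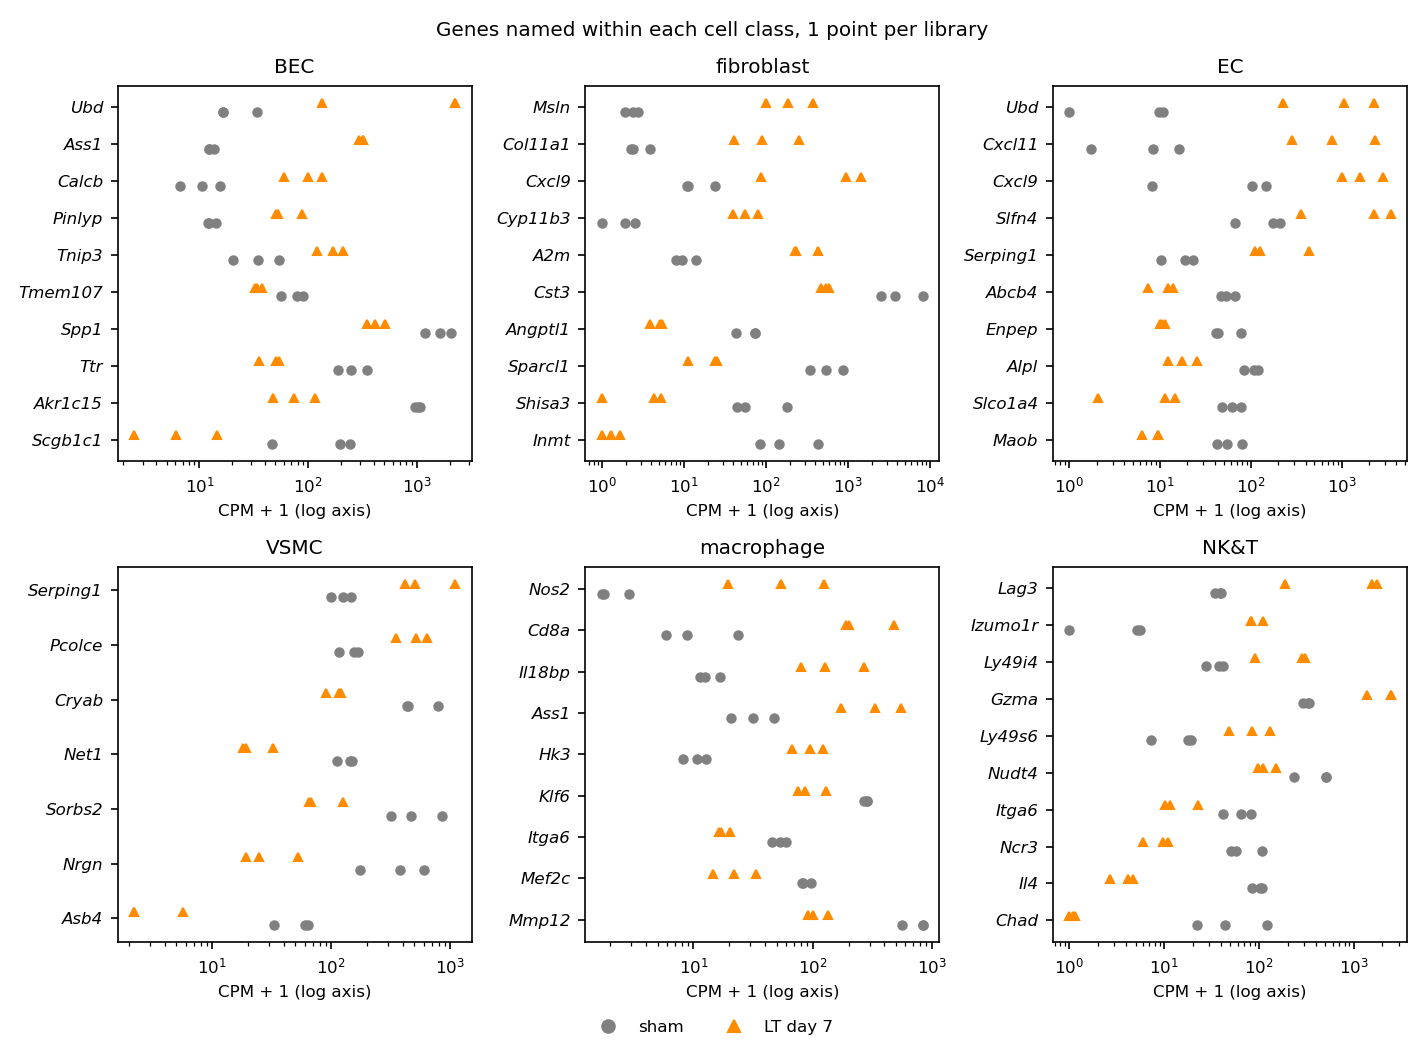
Points give the CPM + 1 (log axis) of each library for the named genes with the largest rise and fall in 6 cell classes, with sham as grey circles and LT day 7 as orange triangles. Genes were chosen to have no overlap between the groups, and the spread differs among them. Ass1 in BEC-like cells lies at 11.3 to 12.7 CPM in sham and 293 to 318 CPM at day 7.

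Nos2, Cd8a, Il18bp, Ass1 and Hk3 were the genes named for the size of their rise in macrophage-like cells. Of 10256 genes tested 42 were higher (0.41%) and 40 lower (0.39%). Nos2, inducible nitric oxide synthase, was at 0.789, 1.90 and 0.696 CPM in sham and 18.5, 123 and 52.8 CPM at day 7 (5.63 ± 0.85, adjusted p = 0.037). Ass1, which takes part in the recycling of citrulline to arginine, the substrate of Nos2, was at 46.6, 19.8 and 30.4 against 173, 549 and 335 CPM (3.48 ± 0.50, adjusted p = 0.0341). Day 7 library 2 was the highest for both. Ass1 was also called in fibroblast-like cells, where it was 12.9-fold higher at day 7 but below its level among empty barcodes in all 6 libraries. Il18bp, the decoy receptor of interleukin 18, was at 10.3, 15.9 and 11.6 against 125, 78.2 and 270.2 CPM. Hk3, a hexokinase of myeloid cells, was at 7.10, 11.7 and 9.74 against 94.4, 65.5 and 121 CPM (3.24 ± 0.31, adjusted p = 0.0165). Clec4f rose among the 10 resident macrophage genes tested, with 2 UMIs in all in sham and 205, 203 and 123 UMIs at day 7. B2m, the light chain of MHC class I, rose among 9 MHC class I processing genes, at 5956, 5614 and 5576 against 11104, 12738 and 16468 CPM, without being above the empty barcodes in every library. The B2m call was lost with plain library sizes. Cd8a was at 7.89, 22.5 and 4.87 against 189.5, 201 and 476 CPM. The 12 NK&T markers in this class summed to 10.7 to 20.9 CPM in sham and 63.0 to 94.3 CPM at day 7, 3 of them higher without overlap and none at 0 everywhere, where 29.1% of all genes tested did not overlap. Their part was not tested.

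Mmp12, the macrophage elastase, fell from 841, 563 and 844 CPM in sham to 90.4, 98.9 and 133 CPM at day 7 (-2.80 ± 0.26, adjusted p = 0.0165). A cluster led by Mmp12, C1qc and C1qa held 14.4%, 18.4% and 23.8% of the sham class and 8.27%, 1.07% and 12.5% of the day 7 class. The transcription factor gene Mef2c was at 81.3, 80.4 and 96.2 against 32.6, 13.7 and 21.0 CPM, and Klf6 at 286, 283 and 267 against 73.7, 128 and 84.9 CPM. The integrin gene Itga6 fell by 1.62 on the log2 scale. None of 14 interferon-stimulated genes was called by edgeR (all positive, median 1.29), nor any of 11 inflammatory cytokines and receptors, 11 monocyte chemokines and receptors, 6 MHC class II genes or 13 immediate early genes. In the order of these 5 lists 6, 3, 4, 1 and 4 members had an unadjusted p under 0.05, and DESeq2 called 4, 2, 3, 1 and 2. With plain library sizes edgeR called 2 monocyte chemokine and receptor genes and 2 immediate early genes. DESeq2 called 1003 genes in this class.

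The macrophage-like cells fell into different clusters in different libraries. Sham libraries 2 and 3 had 70.7% and 59.3% of them in a cluster led by Pf4 and C1qc, sham library 1 had 66.6% in a cluster led by C1qc, C1qa and C1qb, and day 7 library 2 had 71.1% in a cluster led by RGD1559482, Slpi and Il1b. Day 7 libraries 1 and 3 had no more than 40.4% in any cluster. Within the C1qc, C1qa and C1qb cluster 53 genes were called, 11 of them among the 82, of which only 18 were tested there. With plain library sizes 42 genes were higher and 252 lower. Without sham library 2 or 3 no gene was called by edgeR, with 1768 and 1524 genes at an unadjusted p under 0.05. Without sham library 1 there were 596, and without day 7 library 3 there were 2.

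NK&T-like cells of day 7 held more transcript of several cytotoxic and checkpoint genes and less of Il4. Of 6238 genes tested 58 were higher (0.93%) and 53 lower (0.85%). Gzma was at 327, 289 and 339 CPM in sham and 2458, 1373 and 2446 CPM at day 7 (2.72 ± 0.24, adjusted p = 0.00326). Of 9 cytotoxic effector genes Gzma, Prf1, Gzmk and Nkg7 rose (median of the 9, 0.57 beside -0.02 over all genes). Prf1 was at 124, 139 and 169 against 533, 484 and 803 CPM (2.07 ± 0.25, adjusted p = 0.00799). Lag3, an inhibitory receptor gene, was at 38.3, 37.9 and 33.7 against 1746, 188 and 1542 CPM (5.00 ± 0.74, adjusted p = 0.0192). Ctla4 was at 27.1, 37.9 and 44.2 against 139.5, 96.1 and 142 CPM, and Havcr2, which encodes the checkpoint receptor Tim-3, at 4.51, 3.16 and 6.32 against 33.5, 12.8 and 29.9 CPM. These were the 3 called of 13 T cell receptor and checkpoint genes, of which 12 were positive. Izumo1r, the folate receptor 4 gene known from regulatory T cells, had 6 UMIs in all in sham and 836, 119 and 1180 UMIs at day 7 (adjusted p = 0.00454). Ly49i4 and Ly49s6 rose by 2.72 and 2.69.

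Il4, the type 2 cytokine, was at 106, 83.6 and 101 CPM in sham NK&T-like cells and 3.14, 3.66 and 1.67 CPM at day 7 (-5.26 ± 0.35, adjusted p = 0.000457). Ncr3, an activating natural killer receptor gene, was at 106, 56.8 and 49.5 against 8.63, 10.1 and 5.00 CPM, and Chad, a cartilage matrix gene, had 101 UMIs in all in sham against 3 at day 7. Gzma, Izumo1r, Il4 and Chad stayed called in all 6 fits that left out a library. Itga6 and Nudt4 fell by 2.31 and 1.82. Fos and Dusp1 were the 2 called of 13 immediate early genes and fell by 1.59 and 0.94, while Psmb9 and Psmb8 rose among 9 MHC class I processing genes and Gbp5 among 12 interferon-stimulated genes. Fos and Dusp1 were not above the empty barcodes in every sham library, nor Psmb9 in every day 7 library. The 8 cell cycle markers of the class summed to 38.2 to 91.1 CPM in sham and 186 to 267 CPM at day 7, 6 of them higher without overlap, where 22.0% of all genes tested in the class did not overlap. BEC markers summed to 224 to 503 CPM in sham and 13.9 to 86.0 CPM at day 7, 8 of 10 lower without overlap. The class was made of 3 clusters. The shares of the cluster led by Cd3g and Cd3d and of the cluster led by Ccl5, Gzma and Gzmm overlapped between the groups. The cluster led by Gzma, Cd3d, Ccl5, Nkg7 and Lag3, of which Gzma, Nkg7 and Lag3 are among the genes above, held 7.09%, 1.14% and 2.22% of the sham class and 34.5%, 7.76% and 21.5% of the day 7 class. Within the largest cluster alone, led by Cd3g and Cd3d, only 3 genes were called, and 63 of the 111 genes called in the class were tested there. Without sham library 2 or 3, or day 7 library 3, the counts were 4, 7 and 8.

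Antigen presentation genes were set side by side across the classes, which come from the same libraries and so are not independent of each other. Psmb9 was called in EC-like, fibroblast-like and NK&T-like cells and had positive differences in all 7 classes, from 1.30 in NK&T-like to 2.95 in fibroblast-like cells. Among empty barcodes it was at 107 to 140.0 CPM in sham and 814, 413 and 781 CPM at day 7, and of the 7 classes it was above that level in every day 7 library only in EC-like cells (CPM without TMM scaling). Cd74 was at 5016 to 7844 CPM in sham macrophage-like cells and 14004, 4143 and 15315 CPM at day 7 (0.76 ± 0.45, adjusted p = 0.351), with overlap, whereas it was called in EC-like and fibroblast-like cells. In fibroblast-like cells Cd74 was at 41.5, 17.9 and 15.3 against 618, 76.2 and 1032 CPM, below its level among empty barcodes in every library (1022 to 1078 CPM in sham and 1939 to 5715 CPM at day 7). Whether these differences differ between classes was not tested.

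Crem, the cAMP-responsive modulator gene that the study singles out, differed between its level over all cells and its level within classes. Over all cells it was at 109, 207 and 189 CPM in sham and 293, 506 and 755 CPM at day 7 (1.62 ± 0.41, adjusted p = 0.0603). The groups did not overlap, as they did not for 40.1% of all genes tested. Within the 7 tested classes it was called nowhere, and the differences ran from -0.73 in VSMC-like to 0.29 in BEC-like cells, all with overlap. All cells of the day 7 libraries held 18046, 14838 and 42239 Crem UMIs. Of these, NK&T-like cells held 6057, 984 and 16914, macrophage-like cells 2345, 7168 and 5220, and no other tested class more than 674. The rest lay in other classes, unnamed clusters or cells set aside as doublets, where Crem was not tested. Of these classes tested, Crem was highest in NK&T-like cells, at 701, 1499 and 1596 CPM in sham and 594, 900.3 and 1175 CPM at day 7. It was lowest in BEC-like cells, at 17.2, 33.5 and 32.1 against 19.5, 22.3 and 58.1 CPM. In BEC-like cells this was below its level among empty barcodes in all 6 libraries (52.8 to 207 CPM in sham and 224 to 585 CPM at day 7), and with that profile subtracted the difference of 0.29 became -0.91. NK&T-like cells were 2.85% to 5.59% of sham cells and 4.74% to 29.6% of day 7 cells. Macrophage-like cells, with 191 to 626 CPM in sham, were 10.4% to 21.1% of sham cells and 17.5% to 52.1% of day 7 cells. The part of these shares in the Crem level over all cells was not tested.

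**Figure D4:**
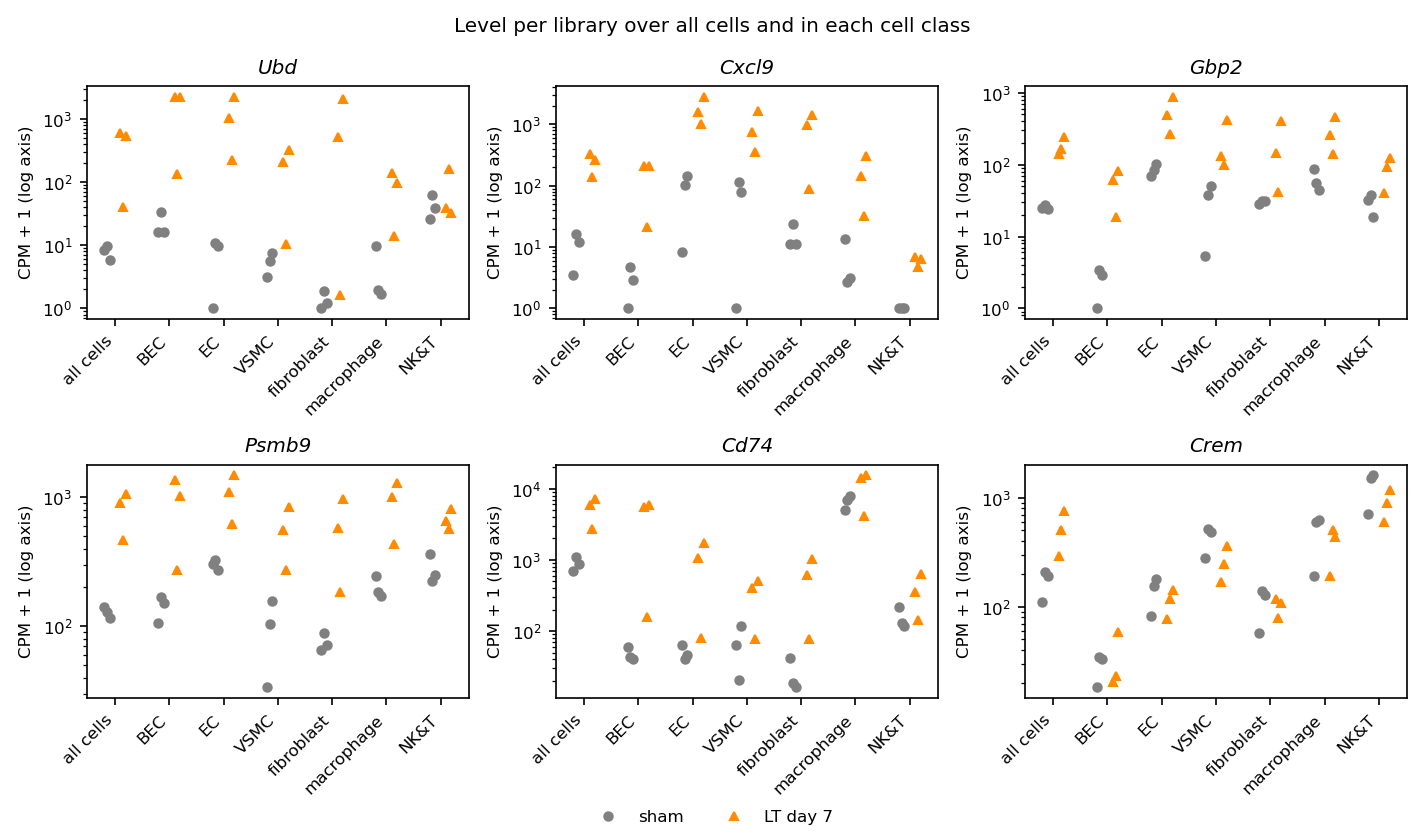
Points give CPM + 1 (log axis) per library over all cells and in 6 cell classes for 6 genes, with sham as grey circles and LT day 7 as orange triangles. Gbp2 and Psmb9 lie higher at day 7 in nearly every class, whereas Crem lies higher over all cells (109 to 207 against 293 to 755 CPM) but overlaps within each class.

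The calls depended on which libraries were in the fit. Over all cells 1146 genes were called with all 6 libraries, 1688 without sham library 1, 848 without day 7 library 2 and 447 without day 7 library 1. Without sham library 3 there were 2, without day 7 library 3 there was 1, and without sham library 2 no gene was called by edgeR, when 3367 genes had an unadjusted p under 0.05. In all 6 of these fits all 1146 genes kept the sign of their difference. All 1146 also had no overlap between the groups, so that leaving out a library could hardly reverse a sign. With sham library 1 and day 7 library 2 both left out, an alternative chosen after seeing the data, 3296 genes were called, of which 1052 were among the 1146. With the 3 day 7 libraries summed to a single sample no gene was called by edgeR, with 3315 genes at an unadjusted p under 0.05.

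**Figure D5:**
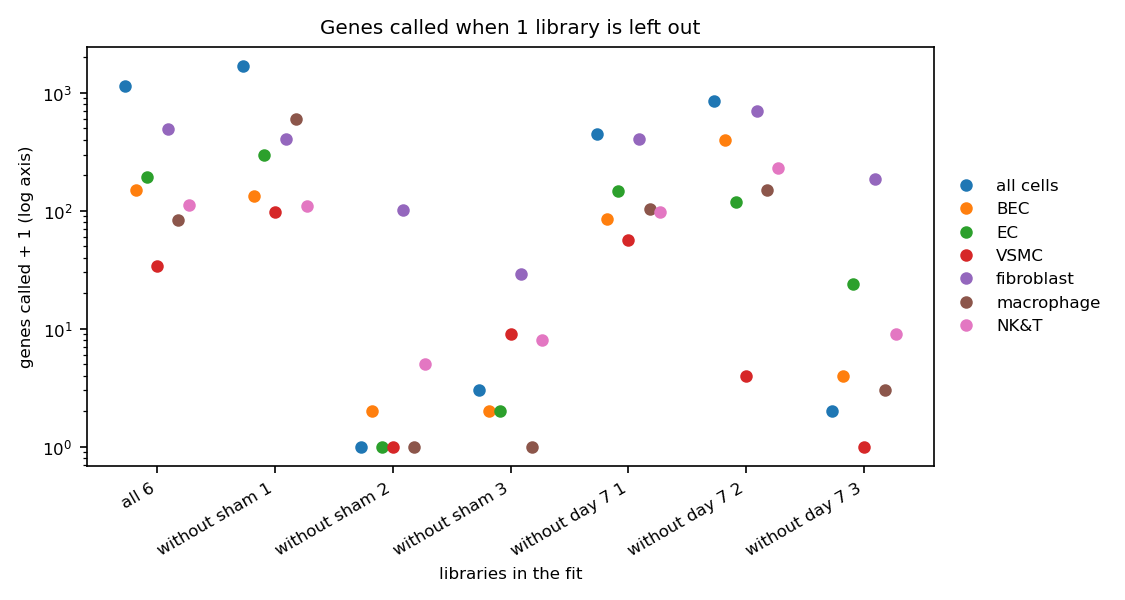
Points give the number of called genes + 1 (log axis) with all 6 libraries and with each library left out in turn, over all cells and in 6 cell classes, lymphatic EC-like cells not shown. Counts over all cells go from 1146 with all libraries to 0, 2 and 1 without sham library 2, sham library 3 and day 7 library 3, and fibroblast-like cells keep at least 28 calls in every fit.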

How the data were processed

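Bile duct cells of 3 sham and 3 LT day 7 libraries were profiled. The authors deposited raw UMI counts per gene and barcode. The matrix headers name version 4 of Cell Ranger, while the submitters' processing notes list Cell Ranger 5.0.1 and Seurat 3.2.0, and the genome build is not given in the sources used here. The gene lists and the comparison were chosen with earlier results of these data known.

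Barcodes were kept as described above. Within each library the 7.5% of cells with the highest doublet scores were set aside for the work on cell classes and kept in the sums over all cells. Log values of 2000 variable genes gave 30 principal components, and 15 nearest neighbours were clustered by the Leiden method at resolution 0.9. Genes of the lists were left out of the variable genes unless they were also class markers. A cluster was named when at least 3 markers of a type were found in 10% of its cells at a fold of 2 or more, unless its 10 leading genes held more markers of another type. A cluster with few UMIs per cell and no marker among its leading genes also stayed unnamed. That applied to the cluster led by Lag3, with 1040 cells and 5 of the 12 NK&T markers. Leading genes were ranked by fold over the median cluster, a choice made after the clusters were seen. Ranking against all other cells would have left the clusters of most sham BEC-like cells unnamed and named the tuft marker cluster.

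UMI counts were summed per library, over all cells and per class, and tested with the quasi-likelihood test of edgeR 4.0.16 in R 4.3.3, with Benjamini-Hochberg adjustment and a threshold of 0.05. The fits over all cells and in BEC-like and macrophage-like cells, the free RNA estimate and the doublet calls were tested on simulated data, and the clustering and naming were not. Over all cells edgeR recovered 13 of 98 genes simulated with a log2 change of 1.5 and 68 of 96 with a change of 3, and 6 of its 87 calls were false, against 58 of 198 for DESeq2. In BEC-like cells these were 11 of 143 and 44 of 192. Named genes were the 12 with the largest called change in each direction over all cells and the 5 in each class, at 50 CPM or more in the higher group and not overlapping between groups, plus up to 3 called members of each list and the genes that the study singles out. Alternatives were DESeq2 1.42.0, plain library sizes, no filter on low counts, doublets kept or removed, subtraction of the empty-barcode profile, Leiden resolution 2, LT days 1 and 3 in the fit, the day 7 libraries summed, and each library left out. Python 3.11.15 with scipy 1.17.1 and leidenalg 0.10.2 did the other steps. Sequences were not used here, and 3 genes that the rule named or a list held are not reported here.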

Additional observations from a re-analysis of the deposited data

Results flagged for a closer look

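In 3 genes with a symbol the difference between day 7 and sham was called in opposite directions in fibroblast-like cells and another class, and a test of the difference between the classes was made. The genes were picked for their opposite calls, so that this test is not independent of the choice. Pgap4 was at 8.89, 7.85 and 7.55 CPM in sham BEC-like cells and 34.9, 23.8 and 16.4 CPM at day 7, but at 17.2, 5.69 and 7.96 against 1.21, 0.630 and 0.848 CPM in fibroblast-like cells. The change in fibroblast-like minus that in BEC-like cells was -4.84 (log2, edgeR adjusted p = 0.00235). Tpbg was at 11.3, 14.2 and 10.5 against 0.687, 1.83 and 1.04 CPM in NK&T-like cells and at 5.72, 8.41 and 6.36 against 19.6, 38.1 and 44.9 CPM in fibroblast-like cells, a difference of 5.67 (adjusted p = 4.69e-05). Amigo2, a cell adhesion gene, was at 91.6, 74.7 and 47.8 against 21.7, 19.9 and 18.3 CPM in VSMC-like cells and at 7.15, 8.58 and 10.1 against 26.7, 23.3 and 28.8 CPM in fibroblast-like cells, a difference of 3.18 (adjusted p = 0.00484). Unlike genes named by size of change, these genes were not required to exceed their level among empty barcodes. The sham sums of NK&T-like cells held 445475, 625754 and 911075 UMIs, so the Tpbg levels there rest on few UMIs. The part of free RNA in these opposite calls was not tested. Groups of 3 libraries are too small for a test of single outlying libraries.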

How the results depend on the processing

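With each library left out in turn, the number of called genes ranged from 0 to 1688 over all cells (1146 with all 6 libraries), 1 to 401 in BEC-like (149), 0 to 298 in EC-like (194), 4 to 229 in NK&T-like (111), 0 to 97 in VSMC-like (33), 28 to 697 in fibroblast-like (490), 0 to 34 in lymphatic EC-like (1) and 0 to 596 in macrophage-like cells (82). In the same order of classes DESeq2 called 3957, 644, 359, 242, 330, 812, 50 and 1003 genes, and with sham library 1 and day 7 library 2 both left out there were 3296, 728, 628, 480, 197, 1124, 90 and 1901. Over all cells, LT days 1 and 3 in the fit gave 2256 and the summed day 7 libraries 0. Without a filter on low counts there were 426 in BEC-like, 692 in EC-like, 745 in NK&T-like, 586 in VSMC-like, 899 in fibroblast-like, 368 in lymphatic EC-like and 412 in macrophage-like cells. With doublets kept there were 226 in BEC-like, 164 in VSMC-like and 4 in lymphatic EC-like cells. With the empty-barcode profile subtracted there were 73, 118 and 0 in BEC-like, EC-like and lymphatic EC-like cells. At Leiden resolution 2 there were 115 in EC-like and 489 in VSMC-like cells, and plain library sizes gave 294 in macrophage-like cells. Within 1 cluster of the class there were 97, 3, 197 and 53 in BEC-like, NK&T-like, fibroblast-like and macrophage-like cells, an alternative chosen after seeing the data, as was the removal of both libraries. The cause of these shifts was not tested.

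Called genes changed sign under few alternatives: within 1 cluster 2 of 76 in BEC-like, 1 of 63 in NK&T-like and 6 of 446 in fibroblast-like cells did, at Leiden resolution 2 it was 1 of 194 in EC-like cells, and with doublets kept 1 of 490 in fibroblast-like cells. The named values that changed sign were of genes that were not called. Vim over all cells went from 0.50 to -0.50 with both libraries left out, and with each library left out it ranged from -0.22 without day 7 library 2 to 0.79. Cdh2 over all cells, at -0.15, ranged from -0.98 to 0.30 without day 7 library 3 and was 0.12 without sham library 3. Crem in BEC-like cells went from 0.29 to -0.91 with the empty-barcode profile subtracted, to -0.32 within 1 cluster, and ranged from -0.44 without day 7 library 3 to 0.58 with each library left out. Vim in BEC-like cells went from 0.53 to -0.73 with both libraries left out, -0.53 with the profile subtracted, to -0.22 within 1 cluster, and ranged from -0.39 without day 7 library 2 to 0.90. Of 185 values of named genes, 22 kept their side of the threshold without sham library 2, 23 without sham library 3 and 34 without day 7 library 3. The differences in share kept their direction with each library left out, except those of VSMC-like and dendritic-like cells. The difference for Amigo2 between fibroblast-like and VSMC-like cells ranged from 2.99 to 3.59 and missed the threshold in 1 of these fits. No paired analysis was possible because the labels give LT day 7 as 1 sample, whose library numbers share nothing with those of the sham samples.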

Other observations

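Some clusters that stayed unnamed differed in cell number between the groups. A cluster led by Gzma and Cd3d that carried cell cycle markers held 0, 5 and 11 cells in sham libraries 1 to 3 and 224, 48 and 346 at day 7. A cluster led by the inhibitory receptor gene Lag3, with few UMIs per cell, held 2, 17 and 11 cells in sham and 128, 45 and 837 at day 7. A cluster led by the hormone genes Ins1, Ins2 and Gcg held 55, 157 and 148 sham cells and 34, 4 and 82 day 7 cells, although all cells of day 7 libraries 1 to 3 held 0, 0 and 4 UMIs of Ins1, 0, 0 and 1 of Ins2 and 0, 10 and 6 of Gcg. Cells of unnamed clusters were 25.5%, 18.5% and 14.1% of the sham libraries and 4.25%, 2.37% and 11.0% of the day 7 libraries, without overlap. These counts were not tested.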
